A study of Mus musculus with 4 samples.

Results

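The genes described here are 54 genes of the G2 and M phases of the cell cycle, taken from a fixed list of gene symbols. The list was not drawn from their values in these libraries, but it was chosen with earlier results of these data known. A row was found for 53 of them among the 31055 features counted, and the pseudogene Tubb4b-ps1, which had no row under that symbol, was not analysed. The levels of these 53 genes were followed across 4 single-cell libraries and, within the cultured libraries, across cells with and without transcripts of Pax7 and Myog.

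The cells were mouse muscle stem cells, also called satellite cells, which rest beside muscle fibres and divide when the muscle is injured. They were sorted by green fluorescence from Tg:Pax7-nGFP mice aged 2 to 4 months, a strain in which a nuclear green fluorescent protein follows Pax7, the transcription factor that marks these cells. All 4 groups carried this transgene: quiescent cells of the extraocular muscles (EOM, the muscles that move the eye) and of the tibialis anterior (TA, a leg muscle), taken straight after sorting, and activated cells of both muscles, kept 4 days in culture (Matrigel, growth medium, 3% oxygen). Each group was 1 droplet library of the 10x Genomics platform, in which a UMI (a unique molecular identifier) stands for 1 captured RNA molecule, and how many animals were pooled into each is not given in the sources used here. With 1 library per group a difference between groups cannot be set against the spread between animals, so no test is given and the intervals cover counting error only.

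A cell that leaves G2 enters mitosis when the kinase CDK1, bound to a B-type cyclin, becomes active. Its chromosomes are then condensed, held at their kinetochores by spindle microtubules, checked for attachment and separated once the anaphase-promoting complex marks cyclin B and securin for destruction. Most genes for this machinery are kept low outside the cycle and are transcribed late in it, from S phase onward, through promoter elements such as the CCAAT box, which NF-Y binds, and the cell cycle genes homology region (CHR), which MuvB complexes bind. Muscle stem cells are quiescent in resting adult muscle, cycle as myoblasts after activation, and leave the cycle as they differentiate, when the transcription factor Myog is made.

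The kept cells numbered 3594 in quiescent EOM, 2908 in quiescent TA, 5563 in activated EOM and 4281 in its TA counterpart, with 15349294 to 122730850 UMIs per library. Median UMIs per cell were 4662 and 5038 in the quiescent libraries and 21261 and 23383 in the activated ones. At least 9 of 12 muscle markers reached 5 CPM (UMIs scaled to a total of 1000000 per library) in every library, and Myog was at 4.87 and 8.14 CPM in quiescent EOM and TA and at 1487 and 1552 CPM after culture. Markers of endothelial, immune, Schwann and erythroid cells summed to at most 47.3 CPM per list in any library and tenocyte markers to at most 181 CPM; the fibroblast list was highest in quiescent TA (708 CPM) and the mural or smooth muscle list in activated EOM (2095 CPM). Their part in the results was not tested. Kept cells shared 3 to 7 barcodes between any pair of libraries.

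Both activated libraries had far higher levels of these genes than the quiescent ones. Together the 53 genes made up 696 CPM in quiescent EOM, 663 CPM in quiescent TA, 7604 CPM in activated EOM and 7427 CPM in activated TA, which is 10.9-fold higher after culture in EOM and 11.2-fold higher in TA. The 2 quiescent libraries lay close together, as did the 2 activated ones. In EOM all 53 reached 5 CPM in either library, and 49 of them were at least 2-fold higher in activated cells, where of all genes at that level 25.4% were 2-fold or more higher and 25.3% lower by as much; none of the 53 was 2-fold lower. In TA 52 reached 5 CPM and 49 of these were at least 2-fold higher and none 2-fold lower, against 29.2% of all genes higher and 24.7% lower. The median log2 ratio (with 1 CPM added) was 4.70 in EOM and 4.71 in TA, beside 0.06 and 0.14 over all genes. Only 15 of the 53 reached 5 CPM in both quiescent libraries, so most of these counts rest on the activated level. In both muscles 40 genes were higher by 10-fold or more, 15 of them by 100-fold or more, beside 4.34% and 0.896% of all genes at 5 CPM in either library of each muscle. In bulk sums such as these, fewer cells of a kind and less RNA per cell cannot be told apart.

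The difference was also present cell by cell. When each cell was thinned to 2000 UMIs, the median cell held 1 UMI of these genes in either quiescent library, 14 after culture in EOM and 13 in TA. Cells without any such UMI were 27.1% of quiescent EOM, 30.3% of quiescent TA, 0.832% of cells after culture in EOM and 0.803% in TA. The activated libraries were thus made up almost wholly of cells in which some member was seen at this depth. As a reference for free RNA, only 13 endothelial-like cells in quiescent TA, kept out of all comparisons, were at hand. They held a mean of 1.62 UMIs of these genes at the same depth, beside 1.29 in the muscle stem cells of that library. Median depths before thinning were 5194.5 and 5038 UMIs. The 13 cells are too few to set a background, and quiescent EOM gave no such cells. The member seen in most of them was Tmpo, in 5 cells. What part of the quiescent level is free RNA was not tested.

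**Figure D1:**
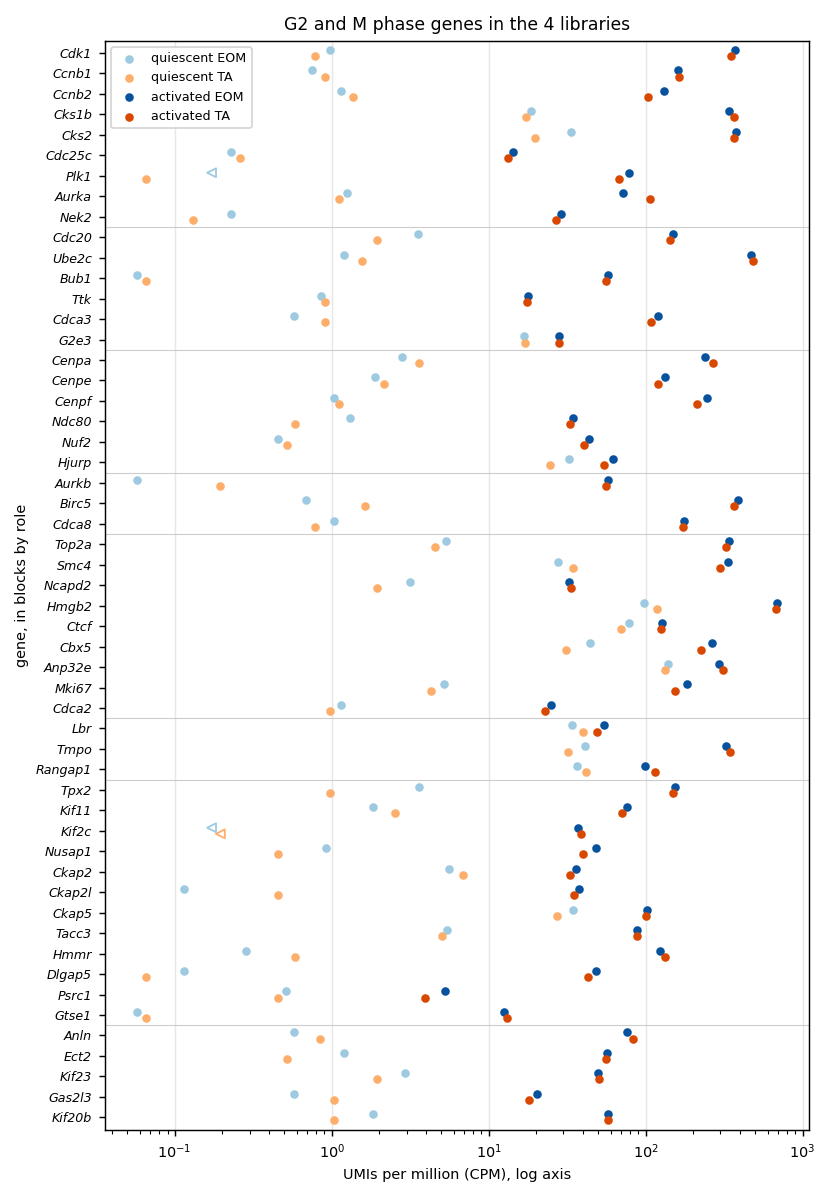
Level of each of the 53 genes in CPM on a log axis, 1 point per library, in blocks by role; open triangles mark genes without a UMI, drawn at the level 3 UMIs would give. The activated points of both muscles lie close together and to the right of the quiescent ones in every row, with the gap narrowest for G2e3, Ctcf and Lbr.

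CDK1 and its partners and activators were among the genes with the largest differences. Cdk1 (chr10:69335146-69352938 in the GRCm38 assembly, GENCODE vM21) was at 0.974 CPM in quiescent EOM, 0.782 in quiescent TA, 369 after culture in EOM and 352 in TA, which is 379-fold higher in EOM (interval 237 to 651) and 451-fold higher in TA (258 to 872). Ccnb1, which encodes cyclin B1 (chr13:100778650-100786570), was at 0.744, 0.912, 162 and 162 CPM across the libraries taken in that order, 218-fold and 178-fold higher. Ccnb2, for the Golgi-associated cyclin B2 (chr9:70407692-70421547), was at 1.15, 1.37, 130 and 104 CPM, 114-fold and 76.1-fold higher. All these quiescent levels rest on 12 to 21 UMIs per library. The polo kinase gene Plk1 had no UMI in quiescent EOM and 1 in quiescent TA, against 78.7 and 68.2 CPM after culture. It was therefore at least 458-fold higher in EOM, with 3 UMIs as the floor over the library, and 1046-fold higher in TA with a counting interval of 188 to 41334. Aurka, a centrosomal kinase, was at 1.26, 1.11, 71.8 and 106 CPM, and the phosphatase gene Cdc25c, which activates CDK1, stayed under 15 CPM even after culture, at 0.229, 0.261, 14.4 and 13.4 CPM. Nek2, another centrosomal kinase, was at 0.229 and 0.130 CPM before and 28.9 and 26.9 CPM after culture. The small CDK-binding subunits began higher: Cks1b was at 18.7, 17.4, 342 and 369 CPM and Cks2 at 33.5, 19.6, 379 and 364 CPM, so that their folds were 18.3 and 21.2 for Cks1b and 11.3 and 18.6 for Cks2.

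The genes that act on mitotic exit and the spindle checkpoint showed the same order of libraries. Ube2c, the E2 enzyme of the anaphase-promoting complex (chr2:164769898-164778822), was at 1.20 CPM in quiescent EOM, 1.56 in quiescent TA, 471 in activated EOM and 482 in activated TA, 392-fold (256 to 633) and 308-fold (207 to 481) higher. Cdc20, the activator of that complex, was at 3.55, 1.95, 150 and 143 CPM. Bub1, a checkpoint kinase gene, had 1 UMI in each quiescent library and stood at 58.0 and 56.1 CPM after culture, 1013-fold higher in EOM with an interval of 182 to 40002 and 861-fold in TA with an interval of 154 to 33996. Such intervals show how little a single UMI says about the starting level. Ttk, a second checkpoint kinase, went from 0.859 and 0.912 CPM to 17.9 and 17.6 CPM, and Cdca3, a trigger of mitotic entry, from 0.573 and 0.912 to 121 and 109 CPM. G2e3, a ubiquitin ligase gene, was the exception in this group: it was at 16.8 and 16.9 CPM in the quiescent and at 28.0 CPM in both activated libraries, 1.67-fold and 1.65-fold higher.

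At the centromere, Cenpa, the histone H3 variant of centromeric chromatin, was at 2.81 CPM in quiescent EOM, 3.58 in quiescent TA, 240 after culture in EOM and 270 in TA. The kinetochore motor gene Cenpe was at 1.89, 2.15, 133 and 120 CPM and Cenpf, a large kinetochore and nuclear matrix protein, at 1.03, 1.11, 246 and 214 CPM. Ndc80 and Nuf2, whose products form the microtubule-binding NDC80 complex, differed by 26.0-fold and 94.8-fold in EOM and by 56.5-fold and 78.2-fold in TA. Hjurp, the chaperone that loads CENP-A, had the highest quiescent level of this group and the smallest fold: 32.5, 24.7, 62.3 and 54.4 CPM, 1.92-fold higher in EOM and 2.20-fold in TA. The chromosomal passenger genes, whose products correct wrong attachments, had the lowest quiescent sum of any group, 1.78 CPM in EOM and 2.61 CPM in TA for 3 genes, against 621 and 596 CPM after culture. Birc5 (chr11:117849251-117855743) was at 0.687, 1.63, 388 and 367 CPM, and Aurkb, the kinase of the complex, had 1 UMI in quiescent EOM and 3 in quiescent TA against 57.2 and 56.0 CPM.

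Genes of chromosome structure ran from small to large differences. Top2a, the topoisomerase that untangles sister chromatids (chr11:98992943-99024189), was at 5.38 CPM in quiescent EOM, 4.56 in quiescent TA, 340 after culture in EOM and 324 in TA, and Mki67, the chromosome-coating antigen used to stain cycling cells, at 5.21, 4.30, 183 and 153 CPM. Hmgb2, a DNA-bending chromatin protein gene, was at 97.8, 119, 690 and 680 CPM, 7.05-fold and 5.73-fold higher. At 2000 UMIs a UMI of Hmgb2 was seen in 16.4% of EOM and 18.4% of TA quiescent cells, in 64.7% and 63.0% of activated ones and in 1 of the 13 endothelial-like cells, too few to set the background. Anp32e, a chaperone gene of the histone variant H2A.Z, was at 140, 134, 292 and 310 CPM (2.10-fold and 2.32-fold), and the insulator gene Ctcf at 78.2, 69.8, 128 and 126 CPM (1.64-fold and 1.80-fold). Cbx5, which encodes the heterochromatin protein HP1 alpha, was 5.92-fold and 7.21-fold higher, the condensin gene Smc4 12.1-fold and 8.73-fold higher and its partner Ncapd2 10.4-fold and 17.2-fold higher. Several of these products also serve interphase chromatin. Of the nuclear envelope genes, Lbr, the lamin B receptor, differed by 1.60-fold in EOM (33.8 to 54.2 CPM) and 1.21-fold in TA (40.2 to 48.8 CPM), Rangap1 by 2.74-fold and 2.77-fold, and Tmpo, a lamina-associated protein gene, by 7.90-fold and 10.7-fold.

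After culture all 12 spindle and microtubule genes were 2-fold or more higher in EOM, and 11 of 11 at 5 CPM in TA, beside the 25.4% and 29.2% of all genes given above. Kif2c, a microtubule-depolymerising kinesin gene, had no UMI in either quiescent library and was at 37.0 and 38.6 CPM in the activated ones, at least 215-fold and at least 198-fold higher. Tpx2, the spindle assembly factor that activates Aurora A, was at 3.61, 0.977, 153 and 149 CPM, and Kif11, the motor that pushes spindle poles apart, at 1.83, 2.54, 76.3 and 70.8 CPM. Ckap5, a microtubule polymerase used in interphase too, had the smallest folds of the group, 2.97 in EOM and 3.69 in TA. Psrc1 had the lowest activated level of all 53 genes, 5.28 CPM in EOM and 3.94 CPM in TA, up from 0.515 and 0.456 CPM. The 5 cytokinesis genes Anln, Ect2, Kif23, Gas2l3 and Kif20b, which build or guide the cleavage furrow and the midbody, summed to 7.10 and 5.41 CPM before and 261 and 266 CPM after culture. Their folds ran from 17.1 for Kif23 to 134 for Anln in EOM and from 17.4 for Gas2l3 to 107 for Ect2 in TA.

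The promoters of these genes can be read beside the shared difference. RefSeq promoter sequences (GRCm38.p6, 250 bases before to 50 bases after each start) matched 47 of the 53 genes, with 52 promoters between them. Searched on both strands in the 300 bases, the CHR letters TTTGAA, or on the other strand TTCAAA, were in 65.4% of these promoters and in 16.1% of the 23745 promoters of genes in the feature table, and the CCAAT box, read ATTGG on the other strand, in 39 of the 52 and in 37.7% of all. Both motifs stood together in 51.9% of the members' promoters and 6.44% of all. In the 250 bases before the start alone, the CHR letters were in 38.5% against 14.5% and 2 or more CCAAT boxes in 51.9% against 10.8%; the boxes may overlap each other on opposite strands. A match is a description of the letters and no evidence of binding. The 4 promoters below were chosen among members with both motifs in the 250 bases before the RefSeq start. They belong to those with the largest log2 ratios after culture, averaged over the muscles. Their motifs were thus a condition of the choice and no result about genes with large folds. Within the activated cells Ube2c and Ccnb2 departed from most other members, as given later. They lie at chr2:164769679-164769917 on the plus strand (Ube2c) and, on the minus strand, at chr10:69352919-69353162 (Cdk1), chr11:99024190-99024439 (Top2a) and chr9:70421555-70421804 (Ccnb2). Each is written 5′ to 3′ on the gene's strand with CHR and CCAAT letters in capitals.
Ube2c: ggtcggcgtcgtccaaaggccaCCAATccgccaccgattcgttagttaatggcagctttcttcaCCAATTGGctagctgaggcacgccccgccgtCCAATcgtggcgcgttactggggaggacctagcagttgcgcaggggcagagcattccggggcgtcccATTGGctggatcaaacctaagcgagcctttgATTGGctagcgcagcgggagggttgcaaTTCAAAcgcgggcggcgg
Cdk1: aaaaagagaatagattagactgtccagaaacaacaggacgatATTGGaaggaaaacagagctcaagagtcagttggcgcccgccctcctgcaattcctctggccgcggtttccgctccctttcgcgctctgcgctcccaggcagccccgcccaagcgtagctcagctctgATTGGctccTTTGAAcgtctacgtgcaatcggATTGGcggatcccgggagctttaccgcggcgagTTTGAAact
Top2a: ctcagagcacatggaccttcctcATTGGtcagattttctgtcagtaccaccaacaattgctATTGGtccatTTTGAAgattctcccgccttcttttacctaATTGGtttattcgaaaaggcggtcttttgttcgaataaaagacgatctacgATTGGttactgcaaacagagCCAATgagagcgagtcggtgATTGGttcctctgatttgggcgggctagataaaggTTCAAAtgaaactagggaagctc
Ccnb2: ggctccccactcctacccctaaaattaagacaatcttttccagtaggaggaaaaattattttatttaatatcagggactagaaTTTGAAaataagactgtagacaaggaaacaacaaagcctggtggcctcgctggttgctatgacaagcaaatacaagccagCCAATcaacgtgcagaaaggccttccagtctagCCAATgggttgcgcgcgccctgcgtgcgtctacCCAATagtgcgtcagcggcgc
Ube2c and Top2a held 6 CCAAT matches each and Cdk1 and Ccnb2 held 3. The stretches of Ube2c and Cdk1 were cut to 239 and 244 bases, and their last 20 bases lie inside the gene as GENCODE places it. Those bases hold the only CHR match of Ube2c and the second of Cdk1, 29 and 15 bases before the RefSeq start. Ccnb2 has 1 more CHR match after the start, which is not printed. The 27 genes with both motifs among their promoters had a median activation log2 ratio, averaged over the muscles, of 4.88, the 9 with CCAAT alone 3.80, the 6 with CHR alone 4.39 and the 5 with neither 4.75. The ranges overlapped widely, from 0.47 to 7.65 with both and from 0.70 to 7.49 with neither, so the letters did not order the genes by their difference. Birc5 had neither motif in its window, while Lbr and Anp32e had both.

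Other genes of the same phases, from a list of 48 kept apart from the members, had the same order of libraries. In EOM 41 of 47 at 5 CPM were at least 2-fold higher after culture and 1 lower, and in TA 44 of 47 and 1. Of all genes 25.4% and 29.2% were higher by as much and 25.3% and 24.7% lower. In each muscle only 12 of the 47 reached 5 CPM in both libraries, so most of these counts rest on the activated level. Ccna2, the gene of cyclin A2, was 239-fold and 277-fold higher, and Prc1, a midzone crosslinker, 64.8-fold and 57.6-fold higher. At the other end, the securin gene Pttg1 was at 0.67 and 0.89 of its quiescent level and Wee1, the kinase that holds CDK1 inactive, at 0.46 and 0.41. The 43 S phase genes that were measured summed to 724 and 600 CPM before and 3255 and 3691 CPM after culture. The 48 other genes summed to 1050 and 863 CPM in the quiescent libraries, more than the 53 members, and to 3606 and 3535 CPM in the activated ones.

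In the quiescent libraries 3 cells stood apart. In quiescent EOM 1 cell held 266 UMIs of these genes from 41 of them, and the next highest held 17; in quiescent TA the highest cells held 177 and 168 UMIs, from 42 and 36 genes, and the next held 28. Each of the 3 had at least 14294 UMIs, 2 to 9 UMIs of Pax7, 7 to 20 of Myod1 and none of Myog, and a mitochondrial share of 4.92% to 6.39%. Over all kept cells Myod1 was at 150 CPM in quiescent EOM and 1190 CPM in quiescent TA, beside 1194 CPM in activated TA. The TA cells, with 20 Myod1 UMIs of 18224 and 7 of 14294, were thus not above the Myod1 level of their library. The 3 cells carried 2.19% of all UMIs of these genes in quiescent EOM and 3.39% in quiescent TA. For the genes that were rarest there, they weighed more: at least 50% of the UMIs lay in those cells for 8 genes in EOM and 15 in TA. Without them, the number of genes with no UMI went from 2 to 4 in EOM and from 1 to 7 in TA. Birc5 went from 564-fold to 966-fold in EOM and from 225-fold to 937-fold in TA, Ube2c from 392-fold to 822-fold and from 308-fold to 738-fold, and Top2a from 63.2-fold to 106-fold and from 71.0-fold to 142-fold. Cdk1 in EOM went from 379-fold to 644-fold; in TA it lost all 12 of its UMIs and was at least 1798-fold higher. The counts of genes past 2-fold were 49 and 49 with and without these cells. Whether they were cycling cells of the muscle or came from elsewhere was not tested.

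In most of these genes EOM and TA lay within 2-fold of each other. In quiescent cells 17 reached 5 CPM in either muscle and none was 2-fold apart, where of all genes 4.84% were 2-fold or more higher in EOM and 2.65% lower by as much. Of these 17, Cks2 was farthest apart, at 33.5 CPM in EOM and 19.6 CPM in TA, 1.71-fold higher in EOM with an interval of 1.49 to 1.97. Cbx5 was 1.42-fold, Hjurp 1.32-fold and Tmpo 1.29-fold higher in EOM, while Ckap2 at 0.80-fold (0.60 to 1.07), Smc4 at 0.81-fold and Hmgb2 at 0.82-fold were lower. Below 5 CPM in both muscles stood the Tpx2 gene, at 3.61 CPM in EOM (63 UMIs) and 0.977 CPM in TA (15 UMIs), 3.69-fold higher in EOM with an interval of 2.08 to 6.98, and 4.24-fold without the 3 cells that stood apart. With genes of any level counted, 8 of the 53 were 2-fold apart. In EOM 4 of the 26 higher by any amount were 2-fold higher, and 4 of the 26 lower were 2-fold lower. Over all genes these counts were 1795 of 11235 and 1125 of 7608, so the members' count was near that of all genes. In activated cells all 53 were measured and none was 2-fold apart, against 2.97% and 1.37% of all genes. Their sum was 1.02-fold higher in EOM, with 38 genes above and 15 below TA, a split that depends on scaling: it was 24 and 29 with median-of-ratios factors. Of all genes, 10867 were above and 9374 below TA without such factors. Aurka stood out as the lowest, at 71.8 CPM in EOM and 106 CPM in TA (0.68-fold, 0.66 to 0.70). Tpx2, whose product activates the Aurora A protein, was at 153 and 149 CPM. Psrc1 at 1.34-fold (1.18 to 1.52), Ccnb2 at 1.25-fold, Nusap1 at 1.23-fold and Mki67 at 1.19-fold were the highest. The counting intervals excluded 1 for 28 genes above and 9 below, which shows that the depth resolved small differences between these libraries. It says nothing of the spread between animals, and the same was not counted over all genes.

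**Figure D2:**
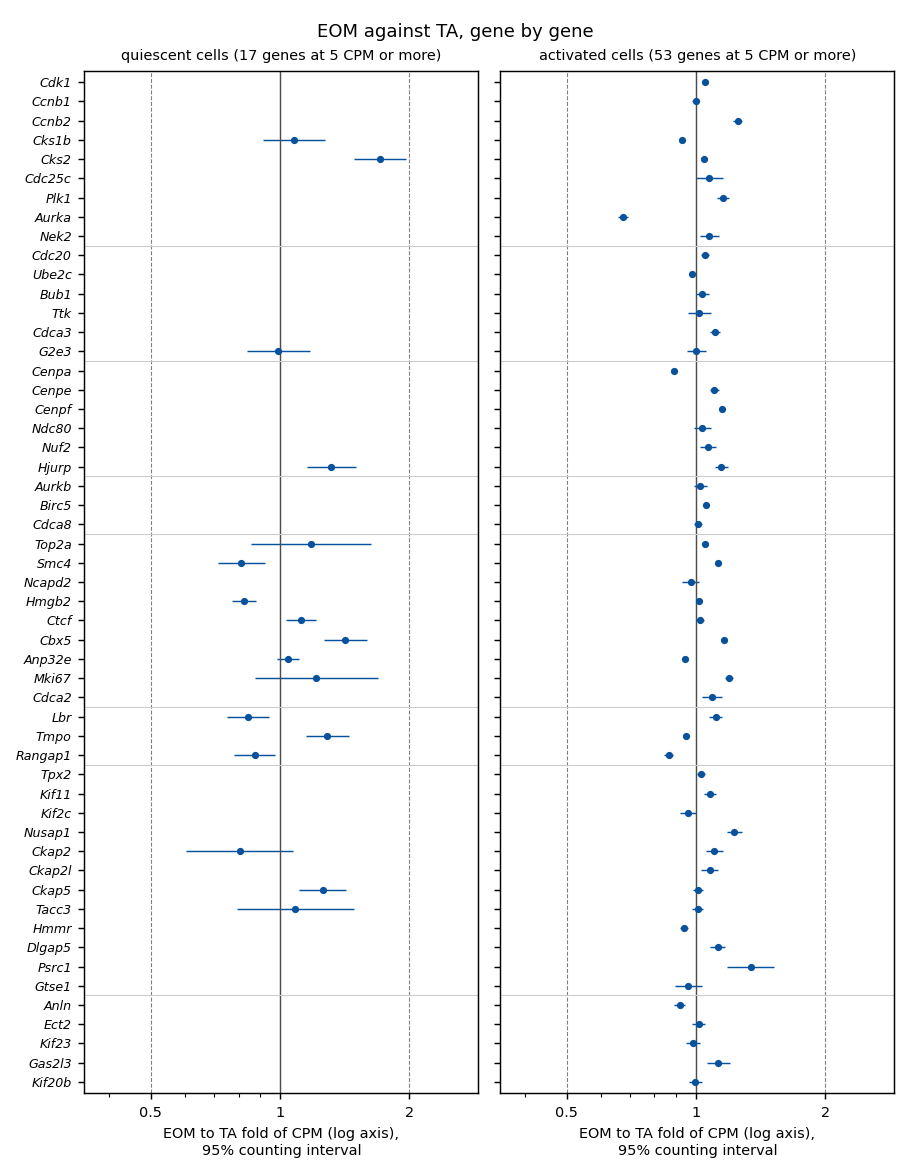
EOM to TA fold of CPM for each gene with its 95% counting interval on a log axis, in quiescent cells for the 17 genes at 5 CPM or more and in activated cells for all 53; dashed lines mark 2-fold. No point reaches a dashed line, and Aurka in activated cells and Cks2 in quiescent cells lie farthest from 1.

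Within the activated libraries, cells were sorted by whether a UMI of Pax7 or Myog was seen after thinning to 5000 UMIs, which 5411 EOM and 4152 TA cells reached. Cells with Pax7 only were 17.6% of EOM and 10.5% of TA cells, cells with both 8.80% and 11.3%, cells with Myog only 50.2% and 60.0%, and cells with neither 23.4% and 18.3%. A cell without a UMI may still express the gene, and the activated libraries held no other cell type to serve as a reference for free RNA. The 53 genes were at 8401 CPM in Pax7-only, 8803 in double-positive, 6864 in Myog-only and 8039 in double-negative cells of EOM, and at 8312, 8467, 6938 and 7787 CPM in TA. Myog-only cells were the lowest state in both muscles, with sums 1.22-fold and 1.20-fold below Pax7-only cells.

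Gene by gene, few members were far apart between these states. In EOM 47 of 53 were higher in Pax7-only than in Myog-only cells, but only Psrc1 and Hjurp by 2-fold, where of all genes 7.12% were 2-fold or more higher and 6.63% lower. In TA 51 were higher and Psrc1 alone by 2-fold, against 3.10% and 4.78%. By any amount, 10514 of all genes were higher and 8127 lower in EOM, and 9594 and 8371 in TA. Psrc1, whose product binds spindle microtubules, was at 9.03 CPM in Pax7-only and 2.46 CPM in Myog-only cells of EOM and at 7.06 and 2.84 CPM in TA, 3.67-fold (2.95 to 4.57) and 2.49-fold (1.88 to 3.27). Hjurp was at 86.1 and 42.0 CPM in EOM and 75.5 and 42.7 CPM in TA, 2.05-fold and 1.77-fold. Relative to all genes the shift was smaller, since the median of all genes was itself 0.13 (EOM) and 0.10 (TA) higher on the log2 scale in Pax7-only cells. With TMM factors 41 members were higher in EOM and 45 in TA. Ube2c was at 0.93-fold and 0.92-fold, Ccnb2 at 0.992-fold and 1.004-fold, Cbx5 at 0.933-fold and 1.002-fold and Tmpo at 0.99-fold and 1.02-fold. These 4 genes thus had nearly the same level in both states.

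The share of cells low in these genes separated the states more clearly than the sums. At 5000 UMIs the median cell held 37 UMIs of the 53 genes in Pax7-only and 30 in Myog-only cells of EOM, and 38 and 31 in TA. Cells with under 20 such UMIs were 9.01% of Pax7-only, 9.87% of double-positive, 33.6% of Myog-only and 7.35% of double-negative cells in EOM, and 6.68%, 12.6%, 31.3% and 5.53% in TA. The limit of 20 is a point in a continuous range: 17.4% of EOM and 15.7% of TA cells lay between 15 and 25 UMIs.

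Sorting by the amount of Myog showed where the low cells lay. With 0, 1, 2 to 3, 4 to 7, 8 to 15 and 16 or more Myog UMIs per 5000, the 53 genes were at 8195, 8336, 8861, 8911, 8079 and 5304 CPM in EOM and at 7977, 8429, 8371, 8799, 7562 and 4882 CPM in TA. The sum was thus above its Myog-free level from 1 to 7 Myog UMIs, little below it with 8 to 15, and clearly lower only in the last class. Cells with under 20 UMIs were 8.06%, 6.86%, 5.95%, 6.27%, 21.8% and 54.2% in EOM (last class 51.5% to 56.8%, exact binomial) and 5.95%, 4.37%, 8.54%, 11.5%, 27.4% and 56.7% in TA (53.5% to 59.8%). The summed S phase genes were 3861 CPM without Myog and 1502 CPM in the last class in EOM, and 4594 and 1857 CPM in TA. The last class, called Myog-high here, held 1384 EOM and 986 TA cells, and 4.06% or fewer of them had a Pax7 UMI.

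**Figure D3:**
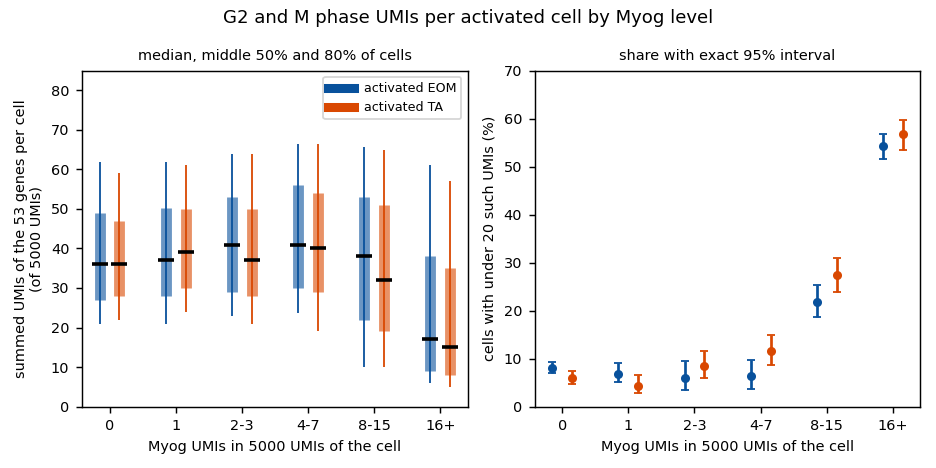
Left, summed UMIs of the 53 genes per activated cell thinned to 5000 UMIs, by the cell's Myog UMIs, as median (black), middle 50% (thick) and middle 80% (thin); right, percentage of cells with under 20 such UMIs with its exact 95% interval. The share is under 12% up to 7 Myog UMIs and over 50% from 16 on in both muscles.

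Comparing Myog-high with Myog-free cells (2220 in EOM, 1193 in TA), 18 of the 53 genes were at least 2-fold lower in EOM, where 17.2% of all genes were lower and 9.18% higher, and 16 in TA, against 12.0% and 7.93%. None was 2-fold higher, and 15 were 2-fold lower in both. Below 1 stood 50 of the 53 in EOM and 52 in TA, or 48 and 50 with TMM factors and 46 and 50 with median-of-ratios factors. Of all genes at any level, 11390 were lower and 7239 higher in EOM and 10117 and 7478 in TA, without such factors. The median log2 ratio of the members was -0.76 in EOM and -0.83 in TA, beside -0.19 and -0.14 over all genes. The genes farthest down were Psrc1, at 8.01 CPM in Myog-free and 0.958 CPM in Myog-high cells of EOM and 6.07 and 1.12 CPM in TA (0.12-fold and 0.19-fold), and Hjurp, at 82.3 and 19.7 CPM and at 72.0 and 17.7 CPM (0.24-fold and 0.25-fold). Next were Cdca2, a phosphatase-targeting subunit gene (0.29-fold and 0.34-fold), Ttk (0.29-fold and 0.36-fold), Aurkb (0.34-fold and 0.35-fold), Mki67 (0.34-fold and 0.39-fold) and the cytokinesis kinesins Kif20b (0.36-fold and 0.36-fold) and Kif23 (0.38-fold and 0.37-fold). Top2a went from 393 to 165 CPM in EOM and from 357 to 168 CPM in TA, and Cdk1 from 402 to 236 CPM and from 383 to 208 CPM.

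A few members did not share this difference. Ube2c was at 440 CPM in Myog-free and 477 CPM in Myog-high cells of EOM and at 435 and 415 CPM in TA, Ccnb2 at 129 and 132 CPM and at 103 and 98.1 CPM, and Cbx5 at 250 and 286 CPM and at 222 and 225 CPM. Their folds were 1.08 and 0.95 for Ube2c, 1.02 and 0.96 for Ccnb2 and 1.15 and 1.02 for Cbx5; with TMM factors all 6 were above 1. So the 2 B-type cyclin genes parted: Ccnb1 was at 172 and 119 CPM in EOM (0.69-fold) and at 170 and 107 CPM in TA (0.63-fold), while Ccnb2 kept its level. The 3′ end of Ube2c overlaps, on the opposite strand, that of Tnnc2, the fast troponin C gene, which was at 15.2 CPM in Myog-free and 489 CPM in Myog-high cells of EOM and at 59.3 and 930 CPM in TA, and whether the counting used strand is not given in the sources used here. In cells without a Tnnc2 UMI (1777 Myog-free and 364 Myog-high in EOM, 640 and 42 in TA) the Ube2c fold was 1.15 (1.11 to 1.19) and 0.84 (0.75 to 0.95). In all, 12 of the 53 genes overlap a feature on the opposite strand. Ube2c had its highest level in between, at 561 CPM with 8 to 15 Myog UMIs in EOM and 599 CPM with 4 to 7 in TA.

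**Figure D4:**
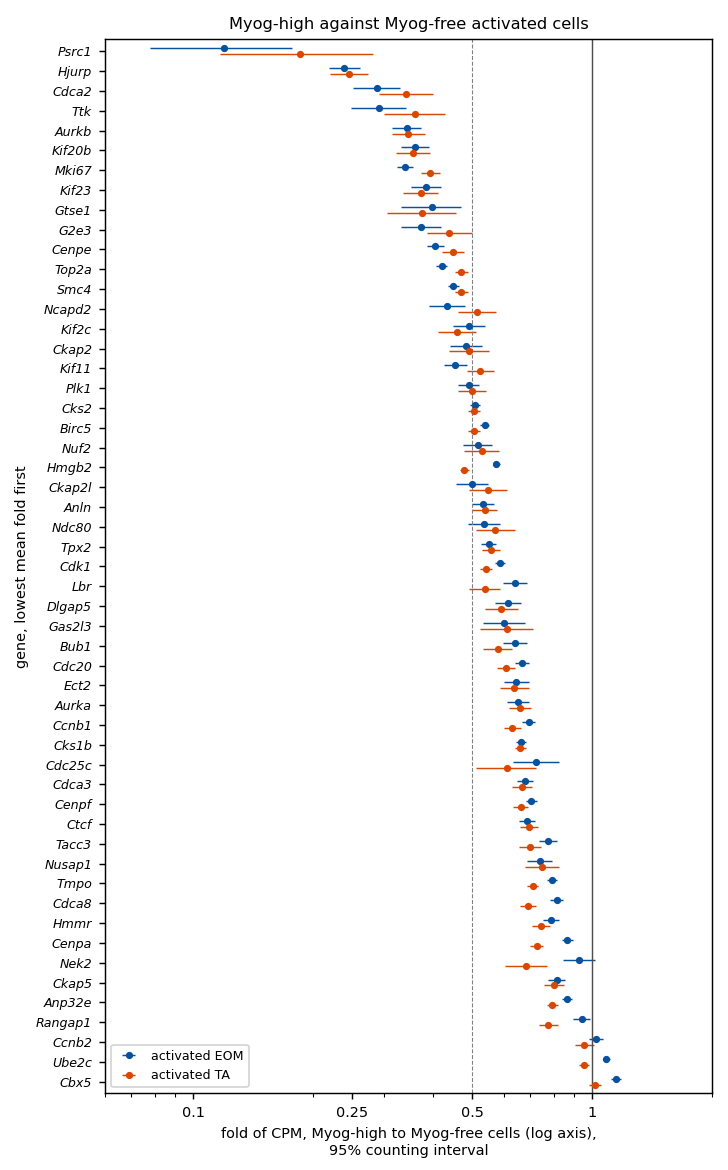
Fold of CPM between Myog-high (16 or more Myog UMIs per 5000) and Myog-free activated cells for each gene, on a log axis with 95% counting intervals, ordered by the mean over the muscles; the dashed line marks 2-fold lower. Psrc1 and Hjurp lie farthest left, and Ccnb2, Ube2c and Cbx5 lie at or near 1.

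The mitochondrial share of UMIs moved with this comparison. Its median was 5.94% in Myog-free and 6.86% in Myog-high cells of EOM, and 5.91% and 6.78% in TA. Among cells with at most 5%, which kept only 36 of the Myog-high cells in EOM and 32 in TA, the members' sum in Myog-high cells was 0.93-fold (EOM) and 0.92-fold (TA) that of Myog-free cells, and 2 and 3 genes were 2-fold lower, beside 14.9% and 9.92% of all genes. Between 5% and 7.5%, where most cells lay (955 and 702 Myog-high), the folds of the sum were 0.73 and 0.68 with 12 and 9 genes 2-fold lower, beside 15.7% and 11.0% of all genes. Between 7.5% and 10% they were 0.45 and 0.45 with 40 and 41 genes 2-fold lower, beside 22.0% and 17.4% of all. None of the 53 was 2-fold higher at any of these shares, beside 10.7%, 8.77% and 10.4% of all genes in EOM and 8.25%, 7.70% and 9.57% in TA, from the lowest share up. The size of the difference thus followed the mitochondrial share, whose part in it was not tested. Myog-high cells themselves were split: 750 EOM and 559 TA cells had under 20 UMIs of these genes, and 634 and 427 had 20 or more. Acta1, the gene of skeletal muscle actin, was at 5327 CPM in the former and 2377 CPM in the latter in EOM, and at 9617 and 5881 CPM in TA, while Myog itself was at 4944 and 4456 CPM and at 4748 and 4120 CPM. Median doublet scores were 0.039 and 0.048 in these cells in EOM and 0.043 and 0.064 in TA, below the 0.065 and 0.072 of Myog-free cells. With 1, 2 to 3, 4 to 7 and 8 to 15 Myog UMIs they were higher in TA, at 0.086, 0.104, 0.109 and 0.086. The same classes of EOM were at 0.067, 0.075, 0.067 and 0.055. Double-positive cells were at 0.067 in EOM and 0.090 in TA. The part of doublets in the levels of these classes was not tested.

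How far each gene followed the others was measured by ordering cells by the summed UMIs of the other 52 genes. Between the top and bottom 25% of cells, 48 of the 53 genes were at least 2-fold higher in both muscles, where 5.90% of all genes were 2-fold higher and 4.78% lower in EOM and 5.78% and 4.31% in TA, with the cells there ordered by all 53. Since the cells were ordered by this gene set, the count is a description of how the set hangs together. These sets of cells also differed in median depth (26653 and 19628 UMIs in EOM, 29457.5 and 22249 in TA), in median mitochondrial share (5.91% and 6.81%, 5.93% and 6.84%) and in the share of Myog-high cells (17.9% and 57.5%, 14.5% and 55.9%), whose part was not tested. The genes with the widest range were Cenpe, at 275 CPM in the top and 11.0 CPM in the bottom set in EOM and 253 and 12.2 CPM in TA (20.8-fold in TA), and Gas2l3, a cytokinesis gene that links actin and microtubules, at 47.2 and 2.09 CPM and at 40.6 and 1.57 CPM (22.6-fold and 25.9-fold). Aurka, Plk1, Kif11, Kif20b, Kif23 and Kif2c were 13.8-fold to 19.6-fold apart in both muscles.

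At the other end stood Cbx5 (1.07-fold and 1.16-fold), Anp32e (1.38-fold and 1.39-fold), Ccnb2 (1.44-fold and 1.47-fold) and Cks1b (1.69-fold and 1.60-fold), and Ctcf, Tmpo and Lbr were at 1.97-fold to 2.15-fold. Ccnb2 was at 152 CPM in the top and 106 CPM in the bottom set in EOM and at 121 and 82.3 CPM in TA, whereas Ccnb1 was at 316 and 32.9 CPM (9.60-fold) and at 310 and 31.6 CPM (9.79-fold). Across single cells the log count of Ccnb2 had a Pearson correlation with the summed other members of 0.12 in EOM (5411 cells) and 0.13 in TA (4152 cells), beside 0.48 and 0.48 for Ccnb1 and 0.49 and 0.46 for Cenpe, whose level in EOM was close to that of Ccnb2. These correlations are over cells of 1 library each, share its depth and carry no test. Hmgb2 had the highest, 0.67 and 0.68.

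**Figure D5:**
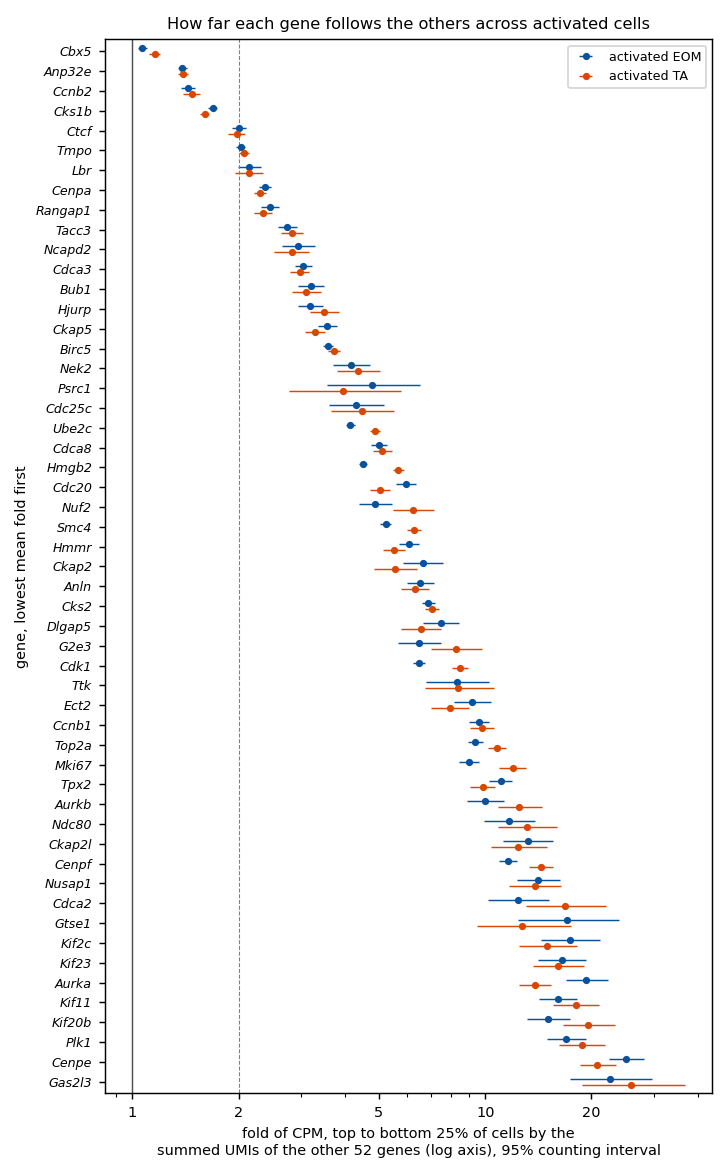
Fold of CPM between the top and bottom 25% of activated cells by the summed UMIs of the other 52 genes, for each gene on a log axis with 95% counting intervals, lowest mean first. Cbx5, Anp32e, Ccnb2 and Cks1b lie under 2-fold and Cenpe and Gas2l3 over 20-fold in both muscles.

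Within cells rich in these genes, members also differed in how they went with S phase transcripts. Cells at or above the median of 34 UMIs were split at the median of summed S phase UMIs, 16 in EOM and 19 in TA, into 1397 S-low and 1329 S-high cells in EOM and 1112 and 1005 in TA. Of the 53 genes 43 were higher in S-low than in S-high cells in both muscles and 5 lower in both, with 6 higher by 1.25-fold or more in both. Of all genes at 5 CPM, 31.0% were higher in both, 43.8% lower in both and 2.78% higher by 1.25-fold in both. The members' sum was itself higher in S-low cells, at 10958 against 9725 CPM in EOM and 10710 against 9348 CPM in TA. Cells with a Myog UMI were 58.0% of S-low and 53.2% of S-high cells in EOM and 76.3% and 57.3% in TA, and their part was not tested. Ube2c was at 801 CPM in S-low and 547 CPM in S-high cells of EOM and at 825 and 549 CPM in TA (1.47-fold and 1.50-fold). Gas2l3 (1.34-fold and 1.58-fold), Nusap1 (1.42-fold and 1.40-fold), Ccnb1 (1.38-fold and 1.43-fold) and Cenpf (1.34-fold and 1.41-fold) came next. Cdc25c, at 1.26-fold in EOM and in TA, was the other member past 1.25-fold in both. Some other genes of mitosis stood near 1, such as the checkpoint kinase genes Bub1 (1.05-fold and 0.98-fold) and Ttk (1.07-fold and 1.05-fold). The 5 genes that were lower in S-low cells were Hjurp (0.88-fold and 0.88-fold), Lbr (0.94-fold and 0.84-fold), Ncapd2 (0.97-fold and 0.86-fold), Anp32e (0.92-fold and 0.92-fold) and Tmpo (0.90-fold and 0.97-fold). Over all cells at 5000 UMIs the summed members and summed S phase genes had a correlation of 0.55 in EOM and 0.58 in TA.

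The genes outside the set whose counts went most closely with its sum across activated cells, by the mean correlation over both libraries among genes at 20 CPM or more, were Ptma (0.58), H2afz (0.55), Arl6ip1 (0.51), Prc1 (0.51), Tubb5 (0.49), Smc2 (0.44), Pclaf (0.41), Anp32b (0.41), Actg1 (0.41) and H3f3b (0.40). Of these, Prc1 and Smc2 were on the separate list of G2 and M phase genes. The gene of the histone variant H2A.Z, H2afz, was at 821 and 771 CPM in the quiescent and 3713 and 3729 CPM in the activated libraries.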

How the data were processed

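The authors deposited raw UMI counts per gene and barcode for 4 libraries. The submitters' processing notes name Cell Ranger 3.0.2 and mm10; annotation, cell calling and use of strand are not given there. Barcodes with under 500 detected genes or over 10% mitochondrial UMIs were left out; the second limit was exceeded by 11.7% and 40.5% of barcodes in quiescent EOM and TA and by 20.9% and 24.7% in the cultured libraries. Scrublet's own threshold, which marked 2, 0, 0 and 1 doublets, had failed. The barcodes of highest score were therefore flagged among all barcodes, at a rate of 0.8% per 1000 barcodes. Of those flagged, 141, 155, 436 and 277 had passed the other 2 limits and were removed at this step. Clustering with scanpy 1.11.5 and igraph 0.11.9 then removed 16 endothelial-like cells of quiescent TA, under naming limits set after a first clustering had been seen.

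UMIs were summed over kept cells and scaled to CPM. Folds carry exact 95% intervals of a ratio of Poisson rates, and log2 ratios a pseudocount of 1 CPM. A gene without a UMI was set at 3 counts per library. Genes were counted as 2-fold apart at 5 CPM or more in either group. Shares of cells carry exact binomial intervals. States were called on cells thinned without replacement. The Myog classes, the limit of 20 UMIs, the top and bottom 25% of cells and the check on Tnnc2 were chosen after the data were seen. TMM factors came from edgeR 4.0.16; no count model was fitted. The fold code was checked on simulated data. The genes and lists were chosen with earlier results of these data known. Every member may be named; other genes were named by a rule (extremes of the second G2 and M phase list, the 10 closest correlations), except Acta1, Tnnc2 and Myod1, chosen after their values were seen. Gene positions come from GENCODE vM21 and promoters from RefSeq.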

Additional observations from a re-analysis of the deposited data

Results flagged for a closer look

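The EOM to TA fold went in opposite directions in quiescent and activated cells, with counting intervals on opposite sides of 1, for 5 of the 53 genes. The same was not counted over all genes, so the 5 cannot be read as particular to this set. It was 0.422 in quiescent and 1.06 in activated cells for Birc5, 0.812 and 1.13 for Smc4, 0.824 and 1.01 for Hmgb2, 0.842 and 1.11 for Lbr, and 1.29 and 0.947 for Tmpo. The differences between quiescent and activated cells were not tested, since each group is 1 library. For Birc5 the quiescent value rests on 12 UMIs in EOM and 25 in TA, of which 7 and 6 remained without the 3 cells that stood apart, and its quiescent fold was then 1.02. Without those cells the quiescent folds of Smc4, Hmgb2 and Lbr were 0.812, 0.829 and 0.841 and that of Tmpo was 1.29. With median-of-ratios factors the activated fold of Hmgb2 was 0.967, on the same side of 1 as its quiescent fold.

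Barcodes with over 50% mitochondrial UMIs, left out of every comparison, also held these genes. Their level was 244.2 CPM in quiescent TA, 2045 CPM in activated EOM and 2089 CPM in activated TA, which is above the limit that a count of 0 allows and below the 663, 7604 and 7427 CPM of the kept cells.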

How the results depend on the processing

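No paired analysis was possible because each group is 1 library and the result comes from no test. The higher level after culture kept its direction for 53 genes in EOM and 52 in TA under every alternative run. The count past 2-fold stayed between 45 and 53 in EOM and 45 and 51 in TA. With a mitochondrial limit of 5% the count in TA was made up of 45 genes higher and 1 lower. EOM to TA directions held under every alternative for 32 genes in activated and 22 in quiescent cells. In quiescent cells the count of 0 genes 2-fold apart became 12 with a mitochondrial limit of 5%, where 263 EOM and 46 TA cells were left, and 8 with no filter on low values, which adds genes at few UMIs. For Pax7-only against Myog-only cells, the count of 2 in EOM became 1 with the 5% limit, no doublet removal, TMM factors, median-of-ratios factors, a minimum of 20 CPM, or Myog, Mymk or Mymx as the differentiation call; the count of 1 in TA became 0 with the 5% limit and with 20 CPM, which Psrc1 does not reach. For Myog-high against Myog-free cells, the 18 genes in EOM became 2 with the 5% limit and 9 with Myog-high from 8 UMIs, and the 16 in TA became 3 and 4. With the 5% limit Kif11 in EOM (log2 ratio 0.093) and Ckap2 in TA (0.24) reversed; the cause was not tested. Scaling moved the median log2 ratio of all genes from 0.06 to 0.47 (TMM) and 0.31 (median of ratios) after culture in EOM, from 0.14 to 0.44 and 0.32 in TA, and from -0.19 to -0.01 and 0.03 for Myog-high cells in EOM, where the members were at -0.59 and -0.55. The share of higher among all genes called went from 50.1% to 65.3% with TMM after culture in EOM, from 64.6% to 51.2% for quiescent EOM against TA, from 51.8% to 39.6% and from 39.3% to 28.8% for Pax7-only cells, and, with median-of-ratios factors, from 34.8% to 47.1% and from 39.9% to 51.0% for Myog-high cells.

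Depth limits the quiescent values: 36 genes were under 5 CPM in both quiescent libraries, so their folds rest on few UMIs.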
